A study of Mus musculus with 20 samples.

Results

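This report describes 40 genes of mitosis and the G2/M transition in 20 mouse RNA-seq libraries. They were chosen by gene symbol as a list of known cell division genes, with no measured value in the rule, and all 40 were found among the 25869 genes of the deposited table. Earlier results of these data were known when this and the other gene lists were chosen. All 40 also passed the filter on low values in each of the 8 comparisons tested. The table held 10 libraries of mouse embryonic fibroblasts (MEFs, connective tissue cells grown from embryos), 6 lymphoma cell lines, 2 primary tumours and 2 preB-ALL samples.

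The MEF lines were made from E14 embryos and grown in DMEM. Of the 10 MEF libraries, 2 came from WT lines and 8 from lines with 1 copy of the *dCas9a-SAM* cassette (*dCas9a-SAM* KI/+), in which the CAG promoter at the *Rosa26* locus, active in most tissues, drives a dead Cas9 fused to VP64 and the further activators p65 and HSF1. Among those 8, 2 libraries carried no sgRNA, 2 carried a non-targeting sgRNA (sgNT) and 4 carried sgRNAs that direct the activator to *Bcl-2* (sg*Bcl-2*). The labels number 2 MEF lines for each genotype, so that the 4 sg*Bcl-2* libraries were 2 from line 1 and 2 from line 2. The lymphoma lines carried *Eµ-Myc*, a *Myc* transgene driven by the immunoglobulin heavy chain enhancer in B-lineage cells, together with *dCas9a-SAM* KI/+ and sg*Bcl-2*. They were derived from tumours of lethally irradiated mice that had received transduced blood stem and progenitor cells, 1 line for each mouse, and primary tumours may still hold cells of the host. Lines 14_179, 15_180, 16_202 and 17_213 were IgM-positive and lines 18_214 and 19_216 IgM-negative. Both primary tumours were IgM-positive and of the same genotype, but their titles and descriptions give the mouse numbers in opposite orders. They are named here by library, 20 and 21. The 2 preB-ALL samples carried *BCR-ABL1* (p190T/+) and were titled P190CreERLSLErg and P190RagCreErg. They were grown with IL7, extracted with another RNA kit and sequenced on another flow cell than the rest, so that these differences and the type of disease cannot be told apart. No label says that replicates were separate cultures or animals beyond the MEF line and mouse numbers, and p-values measure only the spread between these samples.

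A cell enters mitosis when cyclin B binds CDK1 and CDC25 phosphatases remove the phosphates that hold the kinase back. Polo-like and Aurora kinases then build the spindle, the spindle assembly checkpoint holds the anaphase-promoting complex (APC/C) until every kinetochore is attached, and the central spindle guides the cut between the daughter cells. Most genes of this programme are transcribed late in the cell cycle, when the repressive DREAM complex comes apart and its MuvB core joins B-MYB and FOXM1 at their promoters, and they are nearly silent in resting cells.

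Such promoters are known for a pair of short elements, the cell cycle genes homology region (CHR), which MuvB complexes bind, and the CCAAT box, which NF-Y binds. RefSeq promoter windows of GRCm38.p6, running from 250 bases before to 50 bases after the start, were found for 32 of the 40 genes. No window was at hand for *Aurkb*, *Ccna2*, *Cdc25c*, *Foxm1*, *Incenp*, *Kif20a*, *Smc4* and *Tpx2*. The words TTTGAA and TTCGAA were searched for the CHR and CCAAT for the CCAAT box, each on both strands. TTCGAA reads the same on both strands, and words of both kinds shared a base in 1 of the 35 windows. Of the 35 windows, 28 (80.0%) held a CHR word, 27 (77.1%) held CCAAT and 25 (71.4%) held both. Among all 32851 windows the shares were 19.2%, 37.4% and 7.5%. At least 2 CCAAT words stood in 19 of the 35 windows (54.3%) and in 11.7% of all windows. Base composition was not matched, and a match is a description of letters, not of binding.

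Windows are printed 5′ to 3′ on the strand of the gene, with the searched words in capitals. The first 4 belong to genes that moved together across the 10 MEF libraries, which are cyclin B2, the kinase CDK1, the kinase PLK1 and the APC/C activator CDC20. *Ccnb1* is shown because it moved with them in MEFs and held CCAAT without a CHR word. *Bub3* and *Pttg1* are shown because their levels did not follow the other genes in MEFs. The *Pttg1* window, whose start site lies inside the span of the gene in the NCBI table (chr11:43420244-43427463), held none of the words. *Birc5*, *Mad2l1*, *Nuf2* and *Nusap1* also had a window with none of them and moved with the other genes in MEFs, while *Cdc25b*, which did not, held 1 of each kind.
Ccnb2 (chr9:70421505-70421804, minus strand): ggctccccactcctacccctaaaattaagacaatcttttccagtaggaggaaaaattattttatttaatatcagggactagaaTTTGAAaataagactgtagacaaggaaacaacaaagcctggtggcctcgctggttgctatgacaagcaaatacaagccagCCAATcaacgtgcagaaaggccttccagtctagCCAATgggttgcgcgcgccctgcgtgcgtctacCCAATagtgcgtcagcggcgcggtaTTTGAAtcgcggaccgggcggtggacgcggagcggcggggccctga
Cdk1 (chr10:69352863-69353162, minus strand): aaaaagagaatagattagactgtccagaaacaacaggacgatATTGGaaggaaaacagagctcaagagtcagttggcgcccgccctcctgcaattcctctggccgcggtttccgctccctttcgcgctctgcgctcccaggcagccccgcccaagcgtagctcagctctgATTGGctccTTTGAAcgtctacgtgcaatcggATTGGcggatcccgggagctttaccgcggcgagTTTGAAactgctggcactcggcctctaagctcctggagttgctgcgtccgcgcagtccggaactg
Plk1 (chr7:122159185-122159484, plus strand): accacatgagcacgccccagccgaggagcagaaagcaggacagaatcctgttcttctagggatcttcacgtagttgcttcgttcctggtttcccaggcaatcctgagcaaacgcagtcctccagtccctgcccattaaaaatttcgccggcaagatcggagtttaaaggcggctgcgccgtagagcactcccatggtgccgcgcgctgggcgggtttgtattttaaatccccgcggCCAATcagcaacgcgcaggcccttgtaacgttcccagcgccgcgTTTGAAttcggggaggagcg
Cdc20 (chr4:118437294-118437593, minus strand): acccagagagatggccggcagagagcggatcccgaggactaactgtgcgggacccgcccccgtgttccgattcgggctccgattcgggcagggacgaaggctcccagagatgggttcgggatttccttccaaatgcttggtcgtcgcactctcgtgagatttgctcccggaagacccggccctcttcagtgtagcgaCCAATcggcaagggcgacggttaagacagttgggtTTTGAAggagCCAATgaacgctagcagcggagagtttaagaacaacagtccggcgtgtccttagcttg
Ccnb1 (chr13:100786437-100786736, minus strand): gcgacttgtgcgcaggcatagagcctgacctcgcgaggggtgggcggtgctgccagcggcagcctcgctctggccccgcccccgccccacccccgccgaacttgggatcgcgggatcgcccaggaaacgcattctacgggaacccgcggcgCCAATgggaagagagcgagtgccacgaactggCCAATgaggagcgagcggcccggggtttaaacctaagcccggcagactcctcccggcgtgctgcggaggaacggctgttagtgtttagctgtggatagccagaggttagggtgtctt
Bub3 (chr7:131560120-131560419, plus strand): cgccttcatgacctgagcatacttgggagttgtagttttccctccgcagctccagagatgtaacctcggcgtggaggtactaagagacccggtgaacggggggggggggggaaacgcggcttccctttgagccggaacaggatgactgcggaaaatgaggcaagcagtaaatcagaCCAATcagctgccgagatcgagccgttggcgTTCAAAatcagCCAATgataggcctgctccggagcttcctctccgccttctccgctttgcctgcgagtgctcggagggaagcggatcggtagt
Pttg1 (chr11:43425932-43426231, minus strand): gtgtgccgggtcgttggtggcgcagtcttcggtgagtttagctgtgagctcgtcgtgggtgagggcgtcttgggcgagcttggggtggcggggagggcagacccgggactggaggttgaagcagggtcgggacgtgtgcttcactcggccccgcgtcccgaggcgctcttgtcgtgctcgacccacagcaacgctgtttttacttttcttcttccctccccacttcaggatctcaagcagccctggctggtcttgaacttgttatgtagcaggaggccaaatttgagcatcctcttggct

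Depth ran from 12474885 to 26678417 reads per library with a median of 23229458, and levels are given as CPM, the share of a gene in a library per 1000000 counted reads. WT library 13 stood apart before any comparison. Its summed level of 12 fibroblast markers was 2586 CPM against 8217 to 15925 in the other 9 MEF libraries, and 8 macrophage markers summed to 233 CPM against 5.59 to 9.06. Of the 40 genes, 37 were lower in WT library 13 than in each of the other 9 MEF libraries, where 27.1% of all genes with a mean of at least 1 CPM were. The exceptions were *Cdc25b*, *Bub3* and *Pttg1*. The median ratio of WT library 11 to WT library 13 was 2.81 over the 40 genes and 0.878 over 13385 genes. Comparisons with WT MEFs are therefore given with and without WT library 13, and the part of other cell types in these values was not tested.

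Summed over the 40 genes, the level was 2262 and 2205 CPM in MEFs without an sgRNA, 1218 and 1219.7 CPM with sgNT and 1281, 1219, 1038 and 907 CPM with sg*Bcl-2*. The WT libraries 11 and 13 held 967 and 476 CPM. MEFs without an sgRNA were therefore highest, the sgNT libraries fell within the range of the sg*Bcl-2* libraries, and the sg*Bcl-2* range overlapped WT library 11 but not WT library 13. IgM-positive lines 14_179, 15_180, 16_202 and 17_213 held 8417, 10822, 8505 and 8626 CPM, and IgM-negative lines 18_214 and 19_216 held 8126 and 7295 CPM. Tumour libraries 20 and 21 held 6774 and 6170.3 CPM, and the preB-ALL samples P190CreERLSLErg and P190RagCreErg held 8596 and 6302 CPM. The 4 sg*Bcl-2* libraries averaged 1111 ± 171 CPM (SD, n = 4), and the 6 lines averaged 8632 ± 1175 CPM (SD, n = 6). Every lymphoid library was thus above every MEF library, both tumours were below all 6 lines, and the range of the preB-ALL samples overlapped the lines and the tumours. With TMM factors over all 20 libraries the preB-ALL sums were 7007 and 4760.0 CPM, both below all 6 lines, which ran from 7315 to 10043 CPM. In such bulk samples, fewer dividing cells and less of each RNA per cell cannot be told apart.

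**Figure D1:**
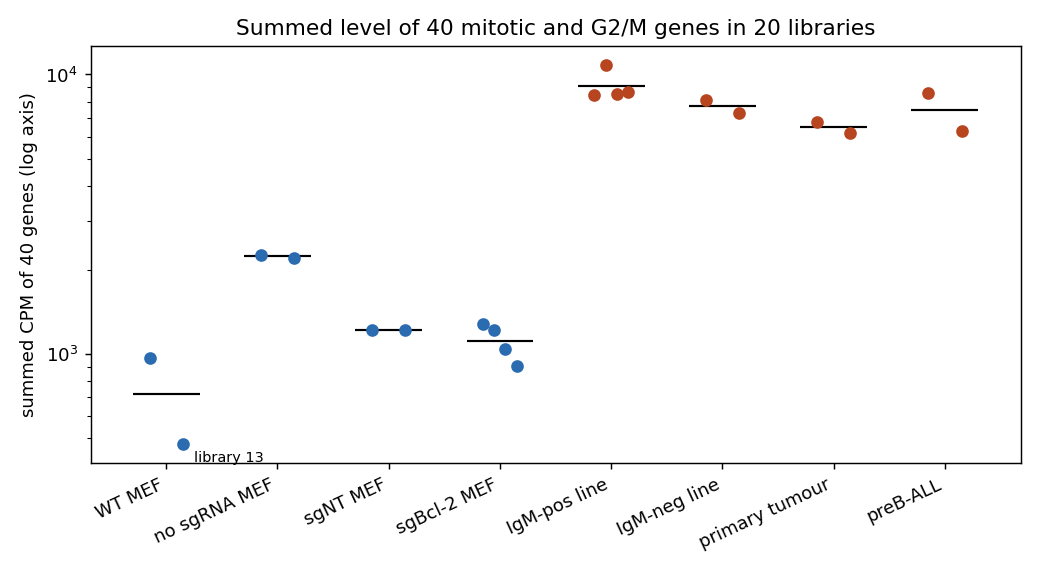
Summed CPM of the 40 genes on a log axis, 1 point for each of 20 libraries, with the mean of each group as a black line and MEFs in blue. MEF libraries lie between 476 and 2262 CPM and lymphoid libraries between 6170 and 10822 CPM, and WT library 13 is the lowest.

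**Figure D2:**
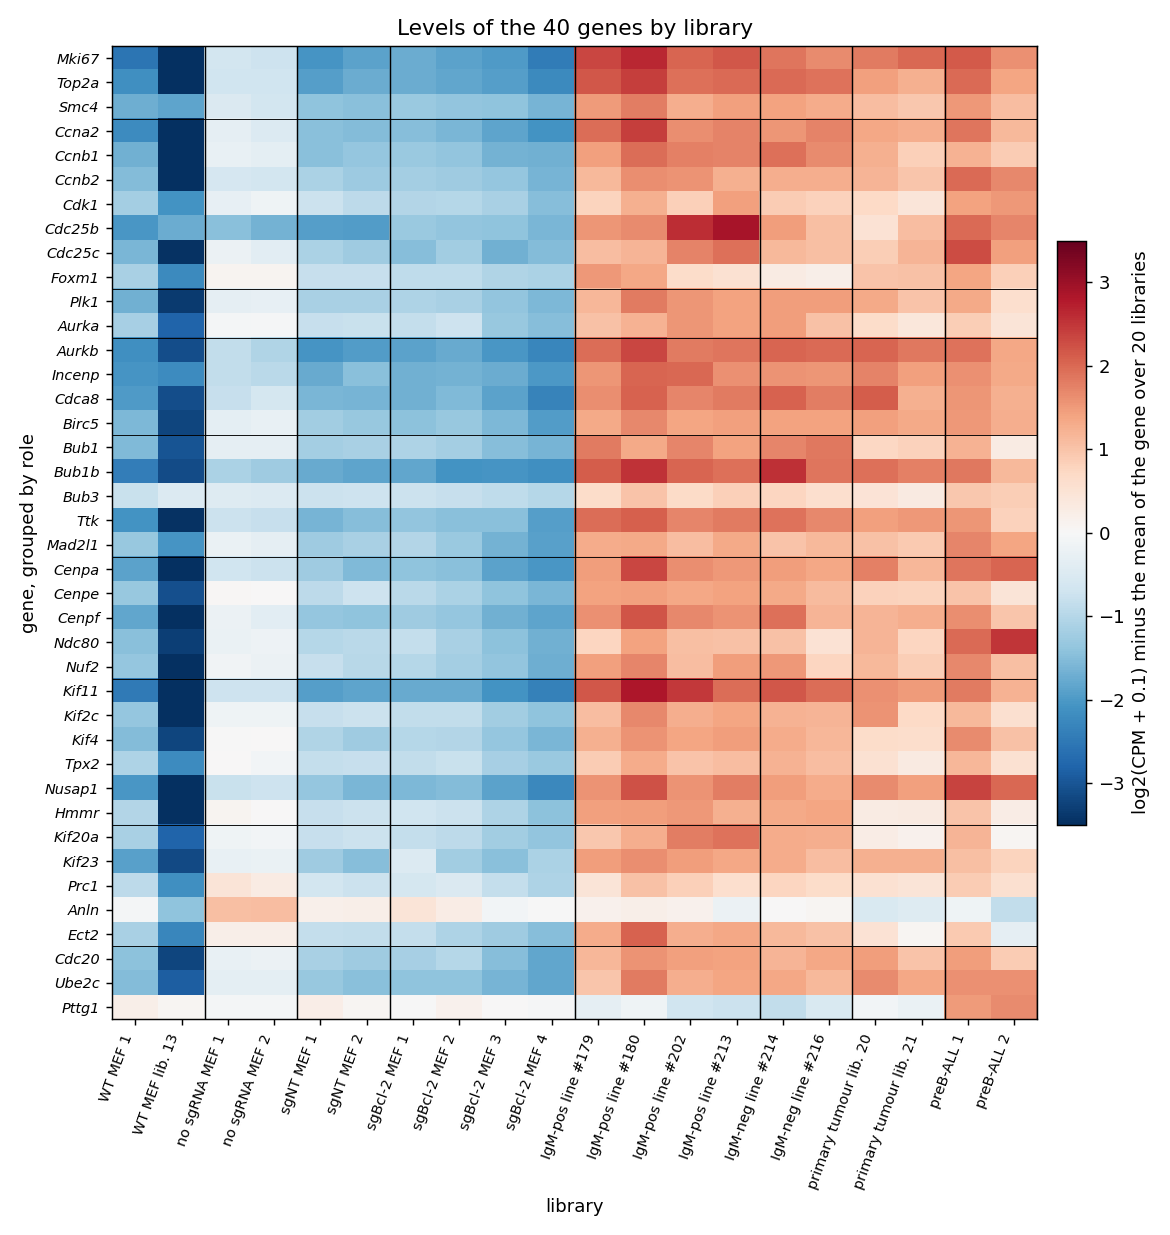
Each row is 1 of the 40 genes, grouped by role, and each column 1 of 20 libraries. Colour is log2(CPM + 0.1) minus the mean of the gene over all libraries, with values beyond the ends of the scale drawn in the end colours. Most rows are darkest blue in WT library 13 and paler in MEFs without an sgRNA, while Pttg1 is highest in the preB-ALL samples and Anln in MEFs without an sgRNA.

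MEFs with sgNT were compared with MEFs that carry the cassette without an sgRNA. No library was infected with virus that lacked an sgRNA. Infection, any difference in culture and the sgRNA therefore cannot be told apart. All classes of mitotic gene were lower with sgNT. Of the 40 genes, 39 were called lower and 0 higher by limma on log2(TMM-scaled CPM + 0.1), where 20.9% of 14655 genes were called lower and 20.3% higher. The median log2 fold change of the 40 genes was -0.88, beside 0.005 over all genes tested, and *Pttg1* (securin, which blocks separase) was the gene not called. In the same comparison 11 of 12 fibroblast markers were called higher, and their summed level was 13071 and 13103 CPM with sgNT against 9616 and 8217 CPM without an sgRNA. The part of the fibroblast signal in the lower mitotic values was not tested.

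Among proliferation markers, *Mki67*, which encodes the Ki-67 protein that coats mitotic chromosomes, had the largest decrease. It measured 183 and 171 CPM without an sgRNA and 67.9 and 77.0 CPM with sgNT, a log2 fold change of -1.31 (SE 0.090, adjusted p = 5.63e-05). The pairs of libraries lay far apart. *Top2a*, the topoisomerase that untangles sister chromatids, measured 153 and 153 CPM without an sgRNA and 65.7 and 74.5 CPM with sgNT, a log2 fold change of -1.14 (SE 0.088, adjusted p = 8.46e-05). *Smc4*, a condensin ATPase that compacts chromosomes, had a log2 fold change of -0.88 (SE 0.070).

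All 7 genes of the cyclin and CDK1 module fell. *Ccnb1*, cyclin B1, which activates CDK1, measured 34.6 and 32.8 CPM without an sgRNA and 15.1 and 16.1 CPM with sgNT, a log2 fold change of -1.12 (SE 0.097, adjusted p = 0.000142). Reads of *Ccnb1* may be shared with its near-identical copy *Ccnb1-ps*, so this value is uncertain. *Cdk1*, the mitotic kinase itself, measured 75.8 and 82.8 CPM and 54.3 and 49.0 CPM in the same order, a log2 fold change of -0.63 (SE 0.078, adjusted p = 0.000664). *Foxm1*, a transcription factor of late cell cycle genes, went from 71.8 and 71.6 CPM to 38.1 and 38.1 CPM, and its log2 fold change was -0.93 (SE 0.070, adjusted p = 7.7e-05). The groups did not overlap for any of these genes. *Ccnb2*, cyclin B2, fell by less, with a log2 fold change of -0.60 (SE 0.089, adjusted p = 0.00158). *Cdc25b*, a phosphatase that starts CDK1 activation, fell least in the module, from 21.6 and 18.7 CPM to 15.4 and 15.3 CPM, with a log2 fold change of -0.40 (SE 0.11, adjusted p = 0.0205).

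Both mitotic kinases fell. *Aurka*, Aurora A, which matures centrosomes, measured 35.9 and 36.4 CPM without an sgRNA and 21.3 and 21.6 CPM with sgNT, a log2 fold change of -0.76 (SE 0.084, adjusted p = 0.000397). *Plk1*, which triggers mitotic entry and spindle assembly, had a log2 fold change of -0.85 (SE 0.078). The 4 subunits of the chromosomal passenger complex, which corrects wrong kinetochore attachments, also fell, from -0.72 for *Incenp* to -1.06 for *Aurkb*, the kinase of the complex, on the log2 scale. Of the 5 checkpoint genes, *Bub3* stood out by its small decrease, from 96.9 and 96.5 CPM to 79.9 and 80.7 CPM, a log2 fold change of -0.28 (SE 0.066, adjusted p = 0.0113). The other checkpoint genes *Bub1*, *Bub1b*, *Ttk* and *Mad2l1* had log2 fold changes of -0.87, -0.64, -0.79 and -0.93.

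All 5 centromere and kinetochore genes fell, and the largest log2 fold change among them was -1.11 for *Cenpf*, a large kinetochore protein. Spindle motors fell as well. *Kif11*, the kinesin that pushes spindle poles apart, measured 49.4 and 49.0 CPM without an sgRNA and 21.2 and 22.8 CPM with sgNT, a log2 fold change of -1.17 (SE 0.086, adjusted p = 7.26e-05). *Kif4*, a chromosome-bound kinesin, measured 34.9 and 35.3 CPM and 17.1 and 14.8 CPM, a log2 fold change of -1.16 (SE 0.093, adjusted p = 0.000104). Genes of the central spindle and cytokinesis had the largest median decrease among role groups of 4 or more genes, -1.06 on the log2 scale, including *Anln* (anillin, a scaffold of the contractile ring) at -0.89. In the APC/C group, *Cdc20* and *Ube2c*, which activate and serve the complex, fell by 0.97 and 1.07 on the log2 scale. *Pttg1* measured 11.2 and 11.1 CPM without an sgRNA and 13.6 and 12.2 CPM with sgNT. Its log2 fold change of 0.19 (SE 0.11, adjusted p = 0.213) did not pass, although the libraries did not overlap.

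The calls of *Cdc25b* and *Bub3* depended on single libraries, and DESeq2 did not call *Cdc25b* with all libraries in (adjusted p = 0.0509). Without sgNT replicate 1 their adjusted p from limma was 0.0805 and 0.0554, and without the first library lacking an sgRNA it was 0.155 and 0.0687. *Cdc25b* also lost its call without sgNT replicate 2 (adjusted p = 0.0506), and *Bub3* without the second library lacking an sgRNA (adjusted p = 0.0632). A fit with the MEF line number as a block called the same number, 39, beside 36.9% of all genes called in either direction. With all 10 MEF libraries in 1 fit, which takes in the spread of the WT pair, 2 were called, beside 2.78% of 15158 genes called lower. The median for the 40 genes was -0.87. Without WT library 13 the fit of the other 9 MEF libraries called 39, beside 34.8% of 15427 genes called in either direction.

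Whether *Bcl-2* activation changed these genes was asked by comparing sg*Bcl-2* with sgNT MEFs. Of the 40 genes, 1 was called higher and 0 lower, where 6.61% of 14676 genes were called higher and 4.24% lower. At an unadjusted p under 0.05 the count was 1 as well, where 29.2% of all genes passed. On recovered reads edgeR, DESeq2 and limma-voom each called 1 too, beside 10.6%, 14.1% and 10.6% of all genes. The gene was *Cdc25b*, which measured 15.4 and 15.3 CPM with sgNT and 24.1, 22.8, 22.0 and 19.3 CPM with sg*Bcl-2*. All 4 sg*Bcl-2* libraries were above both sgNT libraries, and the log2 fold change was 0.60 (SE 0.098, adjusted p = 0.00983). Leaving out sgNT replicate 1 or sgNT replicate 2 moved its adjusted p to 0.1001 or 0.0689, so that 0 genes were called. The median log2 fold change of the 40 genes was -0.08, beside -0.013 over all genes tested.

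*Mki67* measured 85.8, 78.2, 71.8 and 52.3 CPM with sg*Bcl-2*, which overlapped both sgNT libraries, with a log2 fold change of 0.06 (SE 0.17, adjusted p = 0.841). *Top2a* measured 75.4, 70.8, 65.4 and 53.4 CPM, with a log2 fold change of -0.00056 (SE 0.12, adjusted p = 0.998), and *Ccnb1* measured 16.7, 15.7, 13.0 and 12.7 CPM, with -0.02 (SE 0.13, adjusted p = 0.939). Both overlapped sgNT. *Cdk1* measured 45.0, 46.3, 41.8 and 33.1 CPM and *Foxm1* 36.5, 36.1, 32.3 and 31.1 CPM. In unscaled CPM all 4 libraries were below both sgNT libraries for *Cdk1* and *Foxm1*, but with the TMM factors of this comparison *Foxm1* overlapped, and the log2 fold changes of -0.23 (SE 0.12, adjusted p = 0.236) and -0.077 (SE 0.084, adjusted p = 0.584) did not pass. *Aurka* measured 21.0, 22.7, 15.0 and 13.2 CPM, with a log2 fold change of -0.20 (SE 0.20, adjusted p = 0.551).

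Within sg*Bcl-2* MEFs the level followed the MEF line. The first 2 values in each series above are from line 1 and the last 2 from line 2. Both line 2 libraries were below both line 1 libraries for 36 of the 40 genes, where 24.5% of genes with a mean of at least 1 CPM were, and 0 of the 40 were above. The exceptions were *Bub1b*, *Ttk*, *Kif23* and *Pttg1*. The sgNT libraries of lines 1 and 2 had near-equal sums, 1218 and 1219.7 CPM. The interaction of sg*Bcl-2* with MEF line was negative for 39 of the 40 genes, but 0 passed adjustment over 14676 genes (limma, smallest adjusted p = 1). An unadjusted p under 0.05 was reached by 17 of the 40, a share not compared with that of all genes. The term rests on 1 sgNT library for each line.

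**Figure D3:**
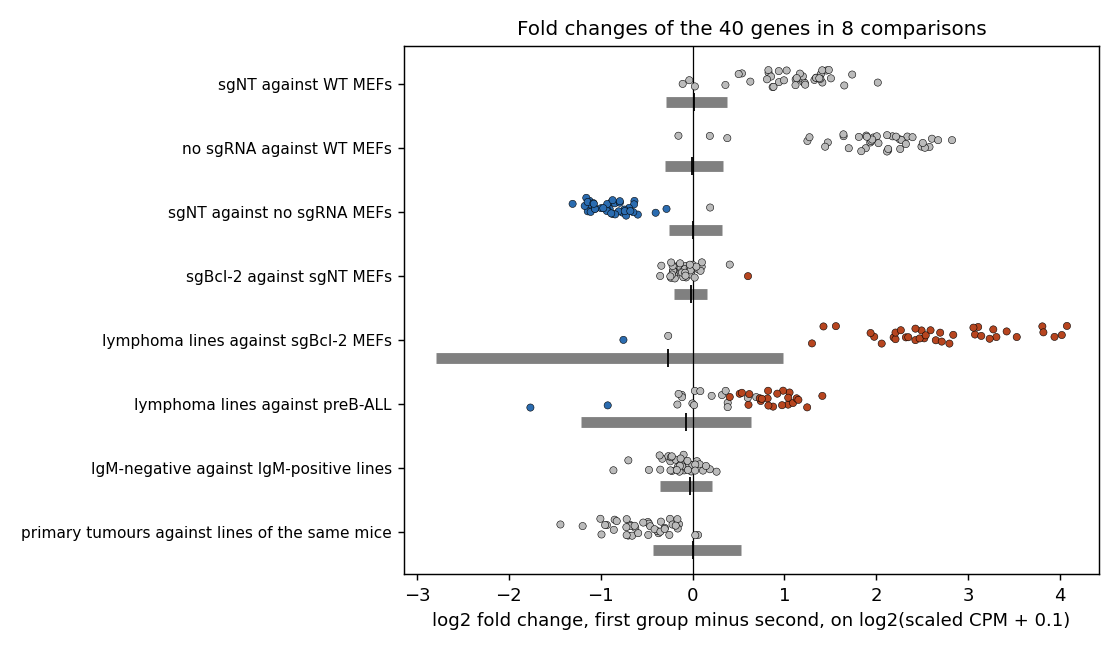
Log2 fold changes of the 40 genes in 8 comparisons, 1 point for each gene, in red where called higher, in blue where called lower and in grey where not called. The grey bar below each row of points spans the middle 50% of all genes tested and the tick marks their median. For sgNT against no sgRNA every point but Pttg1 lies left of the bar, and for lymphoma lines against MEFs every point but Pttg1 and Anln lies right of it.

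WT MEFs were compared with MEFs that carry the cassette without an sgRNA. WT and cassette lines came from different embryos, here and for sgNT against WT, so cassette and MEF line cannot be told apart. No gene of the 40 was called, and 0% of 14546 genes were, while 33 of the 40 had an unadjusted p under 0.05, where 7.4% of all genes did. edgeR called 0 and DESeq2 called 6 higher, beside 0.756% of all genes. The median log2 fold change of the 40 genes was 2.02, and both libraries without an sgRNA were above both WT libraries in CPM for 38 of the 40, where 20.4% of genes tested were. *Mki67* measured 47.8 and 13.6 CPM in WT libraries 11 and 13 against 183 and 171 CPM, a log2 fold change of 2.82 (SE 0.72, adjusted p = 0.642). For *Foxm1* the WT values were 30.8 and 14.2 CPM and the log2 fold change was 1.81 (SE 0.49, adjusted p = 0.642). For both genes WT library 13 was the lower of the WT pair.

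For the other anchors, WT libraries 11 and 13 held 56.5 and 21.2 CPM of *Top2a*, 12.8 and 3.53 CPM of *Ccnb1*, 40.04 and 21.4 CPM of *Cdk1* and 16.8 and 5.24 CPM of *Aurka*. WT library 13 was again the lower of the pair for each. The log2 fold changes without an sgRNA against WT were 2.18 (SE 0.58, adjusted p = 0.642), 2.34 (SE 0.74, adjusted p = 0.65), 1.47 (SE 0.42, adjusted p = 0.645) and 1.97 (SE 0.68, adjusted p = 0.662). Without WT library 13, where the lone WT library is assumed to vary like the other group, 39 of the 40 genes were called higher without an sgRNA, beside 16.8% of 14806 genes, and the median log2 fold change was 1.17.

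The comparison of sgNT with WT MEFs, by which the off-target effect of the system was judged, gave a median log2 fold change of 1.15 and 0 called genes, with 0% of 14560 genes called. None of the 40 had an unadjusted p under 0.05, where 4% of all genes did. edgeR and DESeq2 called 0 of the 40, beside 0% and 0.57% of all genes. Both sgNT libraries were above both WT libraries for 37 of the 40, where 22% of genes tested were. The log2 fold changes were 1.51 (SE 0.70, adjusted p = 0.8) for *Mki67*, 1.02 (SE 0.57, adjusted p = 0.8) for *Top2a* and 1.204 (SE 0.73, adjusted p = 0.8) for *Ccnb1*. They were 0.83 (SE 0.41, adjusted p = 0.8) for *Cdk1*, 0.87 (SE 0.47, adjusted p = 0.8) for *Foxm1* and 1.19 (SE 0.66, adjusted p = 0.8) for *Aurka*. Without WT library 13 the median was 0.30, and 6 genes were called higher, beside 6.52% of 14702 genes. The 3 comparisons among these groups share libraries and are not independent of each other, and the comparison with sg*Bcl-2* MEFs uses the same sgNT libraries.

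The level in lymphoma cells was set against that of sg*Bcl-2* MEFs, which carry the same cassette and are directed to the same target. Mitotic genes were higher in the lines in every role group. Of the 40 genes, 38 were called higher and 1 lower, where 36.3% of 14620 genes were called higher and 45% lower. The median log2 fold change was 2.56, beside -0.271 over all genes tested, and the median of each of the 9 role groups was above 2. These are different cell types in different media. The 12 fibroblast markers summed to 3.52 to 55.4 CPM in the lines, and 10 B cell markers summed to 1271 to 2649 CPM in the lines and 19.4 to 21.9 CPM in sg*Bcl-2* MEFs.

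The largest differences were in *Kif11*, *Bub1b* and *Mki67*. *Kif11* ranged from 315 to 584 with a median of 369 CPM over the 6 lines against 24.2, 23.8, 18.9 and 15.9 CPM in sg*Bcl-2* MEFs, a log2 fold change of 4.08 (SE 0.18, adjusted p = 3.88e-09). *Bub1b*, BubR1, which holds CDC20 in the checkpoint complex, ranged from 277 to 448 with a median of 321 CPM against 21.6, 17.8, 18.3 and 17.1 CPM, with 4.02 (SE 0.15, adjusted p = 1.13e-09). *Mki67* ranged from 888 to 1764 with a median of 1224 CPM, with 3.94 (SE 0.18, adjusted p = 5.56e-09). No line came near any MEF library for these genes. *Top2a* ranged from 928 to 1325 with a median of 985 CPM, with 3.81 (SE 0.11, adjusted p = 1.47e-10), and *Ccnb1* from 111 to 161 with a median of 139 CPM, with 3.07 (SE 0.12, adjusted p = 1.76e-09).

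*Aurka* ranged from 75.6 to 109 with a median of 93.5 CPM and had a log2 fold change of 2.19 (SE 0.18, adjusted p = 7.72e-07). *Cdk1* ranged from 158 to 251 with a median of 167 CPM and had 1.98 (SE 0.14, adjusted p = 2.74e-07). The groups did not overlap for either gene. The smallest increases were in *Prc1*, which bundles microtubules of the central spindle, in *Bub3* and in *Foxm1*. *Prc1* ranged from 95.9 to 144 with a median of 114 CPM against 45.8, 49.1, 39.1 and 33.2 CPM, with a log2 fold change of 1.30 (SE 0.13, adjusted p = 3.75e-06). *Bub3* ranged from 200.1 to 268 with a median of 219 CPM against 79.8, 76.7, 72.3 and 67.3 CPM, with 1.43 (SE 0.079, adjusted p = 2.76e-08). *Foxm1* ranged from 78.0 to 191 with a median of 100.7 CPM, lowest in lines 18_214 and 19_216, with 1.56 (SE 0.24, adjusted p = 0.000128).

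The remaining genes lay between these ends. In the chromosomal passenger complex the log2 fold changes were 3.82 for *Aurkb*, 3.53 for *Cdca8* (borealin), 3.31 for *Incenp* and 2.84 for *Birc5* (survivin). At the centromere they ran from 2.06 for *Ndc80* to 3.14 for *Cenpa*, the histone H3 variant that marks centromeres. Checkpoint kinases *Bub1* and *Ttk* stood at 2.80 and 3.23, and the checkpoint protein *Mad2l1* at 2.49. Cyclin genes *Ccna2* and *Ccnb2* stood at 3.42 and 2.52, and the phosphatase genes *Cdc25b* and *Cdc25c* at 3.11 and 2.65. Among spindle genes *Nusap1*, which bundles microtubules, stood at 3.27 and *Tpx2*, which activates Aurora A, at 1.94. The genes of cytokinesis *Ect2*, *Kif20a* and *Kif23* had close values of 2.35, 2.32 and 2.27. In CPM, 37 of the 40 genes were higher in all 6 lines than in all 10 MEF libraries, 1 was lower and 2, *Prc1* and *Anln*, overlapped, where 27.6% of 13617 genes with a mean of at least 1 CPM were higher and 33.6% lower.

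*Pttg1* and *Anln* went against the rest. *Pttg1* ranged from 6.33 to 10.5 with a median of 7.61 CPM in the lines against 11.5, 12.9, 11.8 and 11.4 CPM in sg*Bcl-2* MEFs, a log2 fold change of -0.75 (SE 0.15, adjusted p = 0.000996), and all 6 lines were below all 4 MEF libraries. *Anln* ranged from 67.4 to 89.5 with a median of 84.4 CPM against 107, 93.2, 73.0 and 77.3 CPM, and the groups overlapped. Its log2 fold change was -0.27 (SE 0.12, adjusted p = 0.0607).

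**Figure D4:**
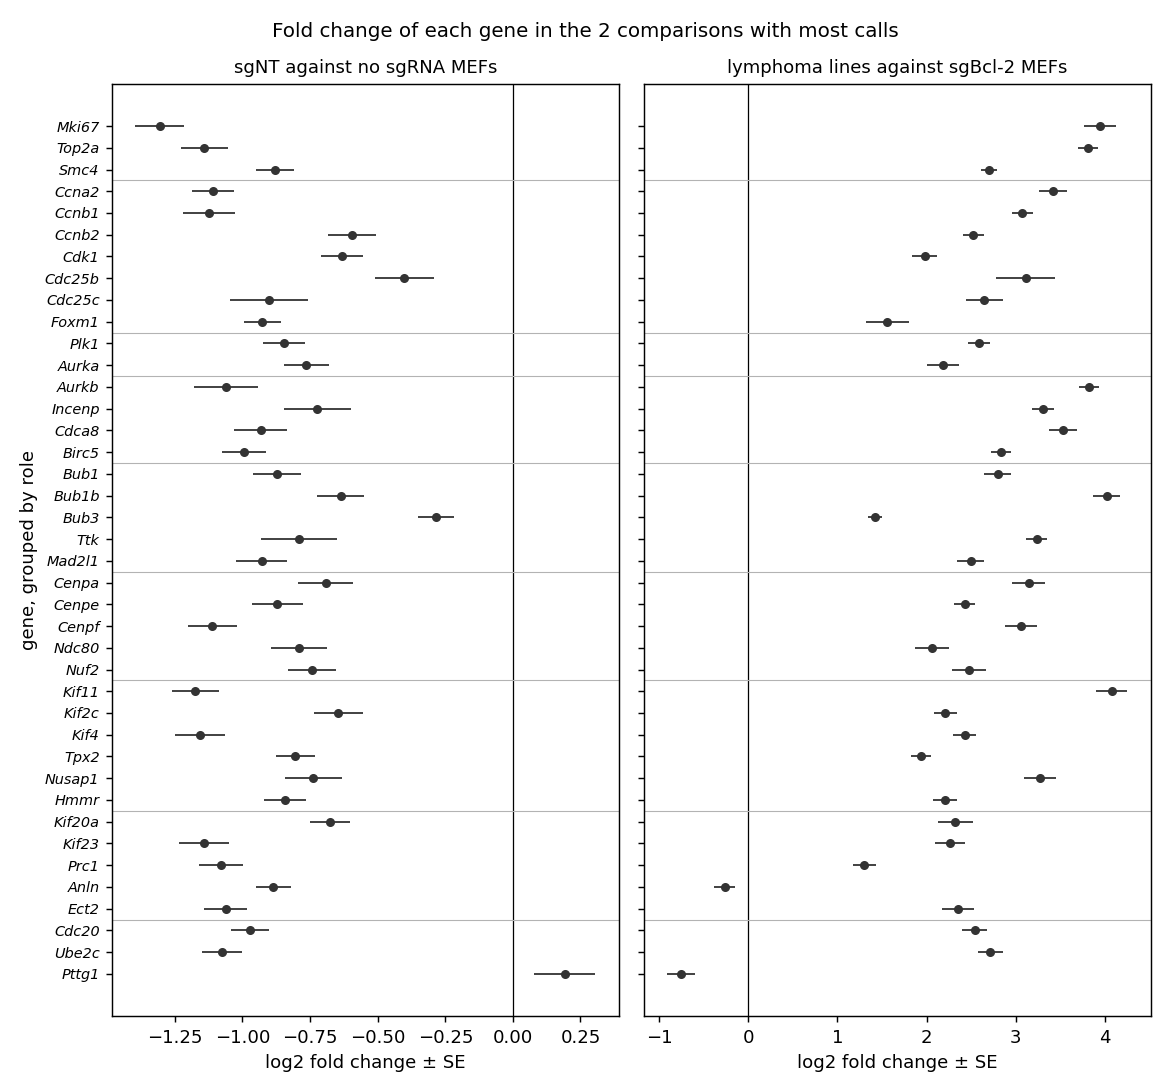
Log2 fold change with its SE for each of the 40 genes, grouped by role, for sgNT against MEFs without an sgRNA on the left and lymphoma lines against sgBcl-2 MEFs on the right. On the left Bub3 and Cdc25b lie nearest to 0 among the genes that fell and Pttg1 lies above 0, and on the right Pttg1 and Anln lie below 0.

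The lymphoma lines were compared with preB-ALL, another B-lineage tumour driven by another oncogene. Of the 40 genes, 23 were called higher in the lines and 2 lower, where 20.9% of 13961 genes were called higher and 22.5% lower. Their median was 0.61 on the log2 scale, beside -0.069 over all genes tested. The cyclin and CDK1 module was close to level, with a median of -0.00 and 1 of 7 called, while the mitotic kinases and the passenger complex were called higher for 6 of 6 genes. The count depends on the scaling and on 1 library. Without a scaling factor 10 were called higher, beside 12.1% of 13961 genes, and 3 lower, with a median of 0.25. Without the P190RagCreErg sample 5 were called higher, beside 9.37% of 14333 genes, and 1 lower, with a median of 0.22. The preB-ALL samples P190CreERLSLErg and P190RagCreErg also held 3102 and 1484 CPM of the 12 fibroblast markers and 6564 and 10992 CPM of the 10 B cell markers, and the part of the fibroblast signal in the comparison was not tested. Mitochondrial mRNA made up 0% of reads in both preB-ALL libraries and 5.11% to 6.98% in the lines, and without those genes the counts were again 23 higher and 2 lower.

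Of the genes called higher, *Ect2*, the exchange factor that turns on RhoA at the cleavage site, had the largest difference. In preB-ALL it measured 72.5 and 31.2 CPM, against a range of 78.2 to 162 with a median of 93.5 CPM in the lines, and the log2 fold change was 1.41 (SE 0.34, adjusted p = 0.0108). *Bub1*, a checkpoint kinase, ranged from 108 to 154 with a median of 139 CPM against 99.998 and 51.9 CPM, with 1.25 (SE 0.28, adjusted p = 0.00733). *Kif20a*, a kinesin of the central spindle, ranged from 144 to 281 with a median of 184 CPM against 171 and 78.5 CPM, with 1.15 (SE 0.35, adjusted p = 0.0271). The P190RagCreErg sample was the lower of the pair for all 3 genes, and the P190CreERLSLErg sample lay within the range of the lines for *Kif20a* only.

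*Ccnb1* measured 96.2 and 76.2 CPM and *Aurka* 67.7 and 51.3 CPM in preB-ALL. All 6 lines were above both values for each gene, with log2 fold changes of 1.06 (SE 0.17, adjusted p = 0.00172) and 0.99 (SE 0.20, adjusted p = 0.00531). *Top2a* measured 993 and 646 CPM and overlapped the lines, with 0.74 (SE 0.22, adjusted p = 0.0241). The smallest called increases were in *Birc5*, *Smc4* and *Cdc20*, with log2 fold changes of 0.40 (SE 0.12, adjusted p = 0.0282), 0.51 (SE 0.17, adjusted p = 0.0425) and 0.54 (SE 0.18, adjusted p = 0.038). *Mki67* measured 1267 and 859 CPM, *Cdk1* 246 and 266 CPM and *Foxm1* 177 and 121 CPM. Without the P190RagCreErg sample, *Ect2*, *Bub1*, *Kif20a*, *Aurka*, *Top2a*, *Birc5*, *Smc4* and *Cdc20* lost their calls (limma, adjusted p from 0.0996 for *Aurka* to 0.467 for *Cdc20*), while *Ccnb1* kept it. *Birc5*, *Smc4* and *Cdc20* also lost theirs when single lines were left out, with adjusted p of 0.0509 to 0.0811. With all libraries in, edgeR did not call *Kif20a*, *Cdc20* and *Smc4* (adjusted p = 0.0506, 0.0573 and 0.0581). DESeq2 did not call *Smc4* and *Cdc20* (adjusted p = 0.0635 and 0.0690). Without scaling *Kif20a*, *Top2a*, *Cdc20*, *Smc4* and *Birc5* lost their calls (limma, adjusted p from 0.0851 for *Kif20a* to 0.800 for *Birc5*). The log2 fold changes of *Mki67*, *Cdk1* and *Foxm1*, 0.60 (SE 0.27, adjusted p = 0.105), -0.11 (SE 0.18, adjusted p = 0.63) and -0.0015 (SE 0.36, adjusted p = 0.998), did not pass.

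For both genes called lower, the preB-ALL samples lay above all 6 lines. *Pttg1* measured 33.1 and 36.9 CPM in preB-ALL and ranged from 6.33 to 10.5 with a median of 7.61 CPM in the lines, a log2 fold change of -1.77 (SE 0.25, adjusted p = 0.000723). *Ndc80*, a kinetochore protein that grips microtubules, measured 98.6 and 141 CPM against 35.0 to 65.8 with a median of 50.5 CPM, with -0.92 (SE 0.22, adjusted p = 0.0099). *Ndc80* lost its call without the P190RagCreErg sample (adjusted p = 0.108), and *Pttg1* kept it. In CPM, 25 of the 40 genes overlapped between lines and preB-ALL, 11 were higher in all 6 lines and 4 were lower, which adds *Ccnb2* and *Mad2l1* to the genes named. Of all genes tested, 15% were higher in all 6 lines and 38.3% lower.

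IgM-negative lines were compared with IgM-positive lines. Of the 40 genes, 0 were called, where 0.597% of 12386 genes were, and 1 had an unadjusted p under 0.05, where 11.3% of all genes did. edgeR, DESeq2 and limma-voom also called 0 of the 40, beside 0.194%, 6.05% and 0.00807% of all genes. Their median was -0.12 on the log2 scale, beside -0.023 over all genes tested. *Mki67* measured 1046 and 888 CPM in lines 18_214 and 19_216 and 1428, 1764, 1174 and 1273 CPM in lines 14_179, 15_180, 16_202 and 17_213. Both IgM-negative lines were below all 4 IgM-positive lines, with a log2 fold change of -0.47 (SE 0.17, adjusted p = 0.391). *Foxm1* measured 82.0 and 78.0 CPM and 191, 172, 104.7 and 96.7 CPM in the same order, again with no overlap and with a log2 fold change of -0.70 (SE 0.30, adjusted p = 0.453).

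*Top2a*, *Ccnb1*, *Cdk1* and *Aurka* overlapped between IgM-negative and IgM-positive lines. Their log2 fold changes were -0.14 (SE 0.14, adjusted p = 0.755), 0.13 (SE 0.17, adjusted p = 0.813), -0.16 (SE 0.21, adjusted p = 0.805) and -0.014 (SE 0.21, adjusted p = 0.986). *Cdc25b* varied widely, at 173, 187, 355 and 438 CPM in the IgM-positive lines and 162 and 122 CPM in the IgM-negative lines, and its log2 fold change was -0.86. Lines 16_202 and 17_213 were the high ones.

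Primary tumours were compared with lines 14_179 and 15_180, the lines of the same mice. Most of the 40 genes measured lower in the tumours, but none passed in the unpaired fit. The median log2 fold change was -0.51, beside 0.01 over all genes tested, and 38 of the 40 values were negative. The count of called genes was 0, where 0.33% of 12719 genes were called, and 22 had an unadjusted p under 0.05, where 25.9% of all genes did. edgeR called 0, while DESeq2 called 14 lower, beside 8.34% of all genes. In CPM both tumours were below both lines for 25 of the 40, where 26% of genes tested were. With mouse number as a block, 23 were called lower by the numbers in the titles, beside 15% of 12719 genes, and 0 by the numbers in the descriptions. The tumours also held 5489 and 5755 CPM of the 10 B cell markers, against 2206 and 2649 CPM in lines 14_179 and 15_180. Their 8 macrophage markers summed to 43.0 and 33.8 CPM and their 8 T cell markers to 64.3 and 34.5 CPM, against 15.7 and 8.55 CPM and 7.34 and 62.7 CPM in the lines, and their part was not tested.

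*Top2a* measured 679 and 595 CPM in tumour libraries 20 and 21 against 1126 and 1325 CPM in lines 14_179 and 15_180, a log2 fold change of -0.99 (SE 0.18, adjusted p = 0.078). *Aurka* measured 58.3 and 49.2 CPM against 76.6 and 87.4 CPM, with -0.66 (SE 0.17, adjusted p = 0.111). Both tumours were below both lines for these genes. *Mki67* measured 996 and 1139 CPM and *Ccnb1* 97.5 and 74.2 CPM in the tumours. Their log2 fold changes were -0.62 (SE 0.21, adjusted p = 0.162) and -0.70 (SE 0.24, adjusted p = 0.166). *Cdk1* and *Foxm1* had -0.49 (SE 0.20, adjusted p = 0.222) and -0.47 (SE 0.16, adjusted p = 0.164). The lowest log2 fold changes were -1.44 for *Ect2* and -1.20 for *Hmmr*, a spindle protein, and the median of the chromosomal passenger complex was -0.23. *Ube2c* and *Pttg1* were the exceptions to the lower values, at 0.06 and 0.029 on the log2 scale.

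Other genes of the same pathway were followed from lists kept apart from the 40. With sgNT against no sgRNA, where 20.9% of all genes were called lower and 20.3% higher, 31 of 35 other mitotic genes were called lower and 1 higher, and 6 of 7 condensin subunits were called lower. *Espl1*, separase, which cuts cohesin, had a log2 fold change of -1.23 and *Gtse1*, a microtubule-bound protein, 0.27. Among 20 S phase genes 18 were called lower, with a median of -0.61, beside -0.88 for the 40 mitotic genes. The lower values were thus not confined to mitosis. Of 13 APC/C subunits 4 were called lower and 2 higher, shares near those of all genes, with a median of 0.08. Of 11 genes of the DREAM and MMB complexes 5 were called lower, among them *Mybl2* (B-MYB) at -1.43, and 1 higher, *Rbl2* (p130, a pocket protein of resting cells) at 0.86. Of 10 brakes on CDK activity 3 were called higher, *Cdkn1c*, *Cdkn2a* and *Cdkn2b*, and 3 lower, *Cdkn1b*, *Wee1* and *Pkmyt1*, which is also near the shares of all genes.

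With sg*Bcl-2* against sgNT, 0 of the 35 other mitotic genes were called in either direction (4 had an unadjusted p under 0.05, a smaller share than the 29.2% of all genes), and 1 of 20 S phase genes was called lower, *Rrm2*, a ribonucleotide reductase subunit, where 4.24% of all genes were called lower and 6.61% higher. Of the 10 brakes 2 were called higher, *Btg2* with a log2 fold change of 1.09 and *Cdkn1b* with 0.42. In the lymphoma lines against sg*Bcl-2* MEFs, where 36.3% of all genes were called higher and 45% lower, 32 of the 35 other mitotic genes, 7 of 7 condensin subunits and 19 of 20 S phase genes were called higher. APC/C subunits were mixed there too, with 6 of 13 higher and 4 lower. *Mybl2* had a log2 fold change of 4.81 and *Zwint*, a kinetochore scaffold, the only 1 of the 35 called lower, -1.16. Of the 10 brakes, *Cdkn1a*, *Cdkn1c*, *Cdkn2a* and *Cdkn2b* were called lower and *Wee1* and *Pkmyt1*, which phosphorylate CDK1, higher. Against preB-ALL, 16 of the 35 other mitotic genes were called higher and 1 lower, and 14 of 20 S phase genes were called higher, where 20.9% of all genes were called higher and 22.5% lower. The P190RagCreErg sample was again the lower of the pair. S phase genes summed to 5098 CPM in P190CreERLSLErg, 3256 CPM in P190RagCreErg and 5177 to 6020 CPM in the lines. The sums of the other mitotic genes were 3227, 2598 and 2864 to 3990 CPM in the same order.

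**Figure D5:**
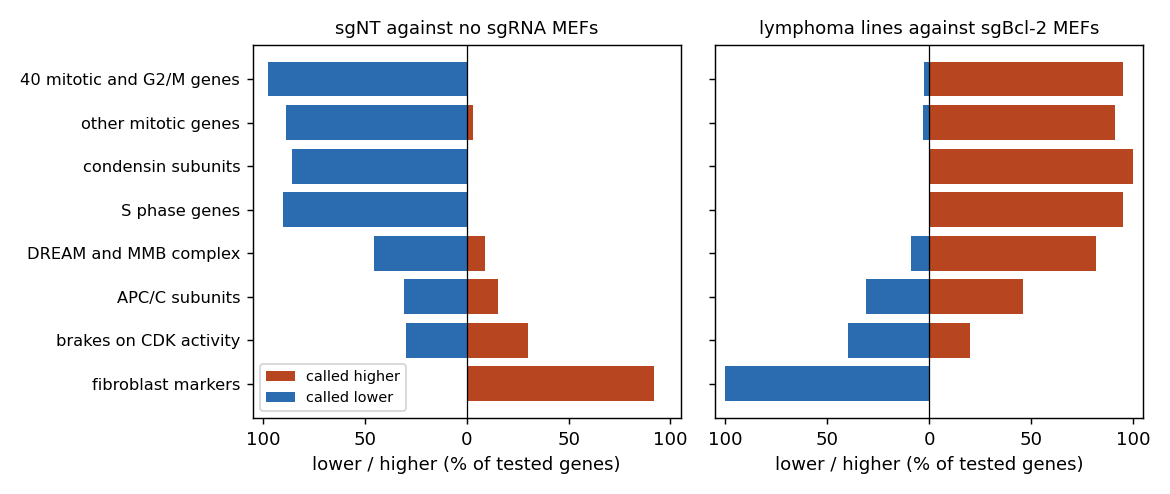
Percentage of tested genes called higher (red, to the right) or lower (blue, to the left) in each list, for sgNT against MEFs without an sgRNA and for lymphoma lines against sgBcl-2 MEFs. The 40 genes, the 35 other mitotic genes, condensin and S phase genes point the same way within each panel, and APC/C subunits and brakes on CDK activity are split.

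Across the 10 MEF libraries the 40 genes moved closely together. The Pearson correlation of each with the mean of the 40, on log2(CPM + 0.1), had a median of 0.988, and each gene is itself a part of that mean. The lowest values were 0.246 for *Cdc25b*, 0.150 for *Bub3* and -0.308 for *Pttg1*. The next lowest were 0.876 for *Smc4* and 0.881 for *Incenp*. Among 13392 genes with a mean of at least 1 CPM, the genes outside the list with the most alike pattern were *Fanci* (0.997), *Melk* (0.996), *Ccnb1-ps* (0.995), *Dlgap5* (0.994) and *Shcbp1* (0.993). Of these, *Ccnb1-ps* may share reads with *Ccnb1*, which is 1 of the 40. All points share the same libraries, WT library 13 is among the 10 points, and these values are a description.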

How the data were processed

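The authors deposited 1 table of CPM values for 20 libraries, made from reads aligned to GRCm38 and counted per gene with Rsubread, and per the labels edgeR was used downstream. Within 0.01, every value was a whole multiple of what 1 read is worth, so reads were recovered for the total depth and the count models. From 25869 identifiers, 25242 matched the NCBI gene table. Genes passing edgeR's filterByExpr were tested with limma 3.58.1 (R 4.3.3) on log2(TMM-scaled CPM + 0.1) over the groups compared, with Benjamini-Hochberg adjustment over all genes tested and a threshold of 0.05. A fold change on this scale understates that of low genes. Alternatives were edgeR 4.0.16, DESeq2 1.42.0 and limma-voom on recovered reads, no scaling, a pseudocount of 1, no filter, each library left out, and a block by MEF line or mouse. The test was checked on simulated counts for sgNT against no sgRNA and for lines against preB-ALL. Only large changes and the same spread for all genes were simulated, so the check does not cover the other comparisons. The 40 genes and all lists were chosen with earlier results of these data known. Fold changes with adjusted p are given for called genes (where over 10, the 3 largest and 3 smallest in each direction) and 6 anchors, *Mki67*, *Top2a*, *Ccnb1*, *Cdk1*, *Aurka* and *Foxm1*. Other genes were named after their values were seen. No 2 replicates agreed within sampling noise. The pairing check correlated deviations of same-numbered MEF libraries from their group means (-0.046 for no sgRNA and sgNT, 0.326 for sgNT and sg*Bcl-2*, 15158 genes).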

Additional observations from a re-analysis of the deposited data

Results flagged for a closer look

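In 82 sets of values, the levels of the 40 genes and their sum in the 4 sg*Bcl-2* MEF libraries and in the 6 lymphoma lines, a single library stood apart from the rest by Dixon's ratio in 4, all in the lymphoma lines. Chance alone gives about 1 in 20. Line 15_180 was high for 3 genes, *Birc5* at 167 CPM, *Cenpa* at 269.7 CPM and *Ect2* at 162 CPM, and this line also had the highest sum of the 40 genes. Line 19_216 was low for *Cenpe*, a kinesin of the kinetochore, at 131 CPM.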

How the results depend on the processing

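Of 1075 alternative values for 75 results, 930 kept their direction and side of the threshold, 60 lost a call, 38 gained one, 30 turned sign and 17 counts of called genes moved by more than 1.5 times. The cause was not tested for any of them. Leaving out 1 library in turn gave 0 to 37 called genes for sgNT against WT MEFs (37 without WT library 11, where 53.4% of all genes were called, 6 without library 13), 0 to 39 for no sgRNA against WT MEFs (37 and 39, with 55.1% of all genes in the former), 0 to 1 for sg*Bcl-2* against sgNT and 6 to 27 for lines against preB-ALL (6 without P190RagCreErg). With all 10 MEF libraries in the fit, the counts were 27 for no sgRNA against WT (4.73% of all genes), 2 for sgNT against no sgRNA (5.94%) and 0 for sg*Bcl-2* against sgNT (0.422%). DESeq2 called 6 for no sgRNA against WT and 14 for tumours against lines. For lines against preB-ALL no scaling gave 13, and tumours in place of the lines gave 1 (23.8% of all genes). For tumours, all 4 IgM-positive lines gave 9 (10.9% of all genes) and all 6 lines gave 15 (19.7%). A replicate block by mouse gave 23 by the tumour titles and 0 by the descriptions. The replicate block by MEF line left the counts at 39 and 1 (36.9% and 14.6% of all genes), and changed no other call.

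Sign changes of uncalled values were as follows. For sg*Bcl-2* against sgNT, *Top2a* became 0.00418 (edgeR), 0.0116 (DESeq2), 0.00253 (no filter), 0.00214 (10 MEF libraries) and 0.00789 (without WT library 13). With a library left out *Top2a* ran from -0.12 to 0.12 (0.00846 and 0.086 without sg*Bcl-2* replicates 3 and 4), *Mki67* from -0.055 to 0.19 (-0.028 without sg*Bcl-2* replicate 1) and *Ccnb1* from -0.094 to 0.061 (0.037 and 0.028 without sg*Bcl-2* replicates 3 and 4). *Mki67* was -0.029 without scaling. *Foxm1* for lines against preB-ALL became 0.042 (edgeR), 0.014 (no filter), 0.16 (tumours in place of lines) and -0.37 to 0.29 with a library left out (0.019, 0.047, 0.079 and 0.10 without 1 of 4 lines). Between IgM groups, with a line left out, *Ccnb1* ran from -0.027 to 0.30 and *Aurka* from -0.25 to 0.24 (0.079 and 0.026 without 16_202 and 17_213). *Foxm1* for tumours became 0.17 against all 6 lines. With tumours in place of the lines against preB-ALL, 3 called genes turned sign, *Kif20a* (-0.15), *Smc4* (-0.021) and *Top2a* (-0.065). Without scaling the median of all genes in lines against preB-ALL moved from -0.07 to -0.42, and in lines against MEFs from -0.27 to -0.097. Groups of 2 libraries limit every comparison but that of lines with sg*Bcl-2* MEFs, and depth of at least 12474885 reads does not limit genes at these levels. The fits with 9 MEF libraries, RLE factors or no mitochondrial genes were added after the data were seen.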
